A study of Mus musculus with 15 samples.

Results

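The genes studied here were the CDK inhibitors of the Cip/Kip family (Cdkn1a, Cdkn1b and Cdkn1c) and of the INK4 family (Cdkn2a, Cdkn2b, Cdkn2c and Cdkn2d). A member was measured by a probe set annotated with its symbol alone, and by the brightest such probe set where a gene had several. This left 6 of the 7 genes, out of 19296 genes on the array. The probe set of Cdkn1a, the gene of p21, carried another symbol as well, so Cdkn1a was not analysed here.

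CDK inhibitors are small proteins that hold back the kinases of the cell cycle. INK4 proteins bind the kinases CDK4 and CDK6 and keep them from their D-type cyclins, while Cip/Kip proteins bind assembled cyclin and kinase complexes and block CDK2 most strongly. In mouse bone marrow the Cip/Kip proteins p57 and p27 are known for keeping stem cells out of the cell cycle, the INK4 protein p18 for limiting their self-renewal, and p16 for a reported rise with age.

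RNA had been measured on 15 Affymetrix arrays of sorted bone marrow cells of C57Bl/6 mice: 3 of old haematopoietic stem cells (HSC), 5 of young HSC, 3 of old granulocyte/macrophage progenitors (GMP) and 4 of young GMP. Old mice were 22 to 30 months and young mice 6 to 12 weeks of age, all labelled male, and the labels name no mutation or treatment. HSC were sorted as Lin-, c-Kit+, Sca-1+, Flk2-, CD48- and CD150+ cells, and GMP as Lin-, c-Kit+, Sca-1-, CD34+ and Fc gamma receptor+ cells. Whether each array held RNA of 1 mouse or of a pool is not stated, so p-values measure the spread between arrays only, and that spread may be technical. The number of arrays limits the precision. Because each array averages a sorted population, fewer cells with an RNA and less RNA per cell cannot be told apart.

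The sorted populations carried their own markers. All 8 measured HSC markers were called higher in HSC than in GMP at both ages, and of 10 GMP markers 10 were lower in young HSC and 9 in old HSC. Limma called 4 and 3 of 8 mature neutrophil genes and 3 and 2 of 8 macrophage genes lower in young and old HSC than in GMP, and 0 of 6 B cell genes. Of 7 endothelial genes 3 and 4 were higher in young and old HSC and 1, Pecam1, lower at each age. Of 8 T and NK cell genes 1 was higher and 2 were lower at each age, Nkg7 by 11.0-fold in young and 13.5-fold in old HSC, and Gzmb by 6.21-fold and 3.02-fold. With age in HSC no marker list of another cell type had more than 1 gene called in either direction. The megakaryocyte list also went with HSC: the mean of its 7 measured genes ran from 8.34 to 8.35 log2 in old HSC, 7.92 to 8.51 in young HSC, 7.004 to 7.36 in old GMP and 7.02 to 7.16 in young GMP. The mean of 8 mast cell genes was higher in GMP, at 7.04 to 7.23 in old HSC, 6.72 to 7.002 in young HSC, 8.49 to 8.67 in old GMP and 8.37 to 8.42 in young GMP. Of these 8, 6 were lower in young and 5 in old HSC, while Kit and Gata2, both also active in stem cells, were higher, Kit by 2.08-fold in young and 2.23-fold in old HSC and Gata2 by 2.05-fold and 2.39-fold. The part of these lists in the differences below was not tested. Sex-linked genes went against the labels on 7 young arrays. Xist, the RNA of the inactive X chromosome, was 4.72 and 5.49 log2 on replicate 1 of young HSC and young GMP and 8.92 to 11.51 on the other 7 young arrays, against 5.46 to 5.84 on the 6 old arrays. The mean of 3 Y-linked genes was 4.94 and 5.20 on replicate 4 of young HSC and young GMP and 7.12 to 8.80 on the other young arrays, against 8.45 to 8.80 on the old arrays. Young HSC replicates 3 and 5 had high Xist (10.02 and 10.26 log2) together with Y-linked means of 8.47 and 8.42. Whether such arrays held RNA of both sexes was not tested. Both replicate 4 arrays had the narrowest interquartile ranges of all values in their groups, 2.21 and 2.13 log2. Old HSC arrays ran narrower than most young HSC arrays, at 1.96 to 2.33 against 2.21 to 2.69 log2. Age in HSC therefore cannot be told apart from this width. Nor can age in either cell type be told apart from sex, as 7 young arrays and no old array had high Xist. Values without both replicate 4 arrays are given beside the results below whose calls or counts moved most with them.

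All 6 measured members lay above the lower quartile of their array on every array, which does not show that each was detected. Of 6 measured B cell genes, 3 lay below the lower quartile on every young HSC array. Another, Pax5, averaged 6.97 log2 there, beside 6.89 for Cdkn2a and 7.05 for Cdkn2b. How far the values of Cdkn2a and Cdkn2b are background was not tested. Differences were tested with limma across all genes, and a gene was called at a Benjamini-Hochberg adjusted p under 0.05. Between cell types, 3 of the 6 members were called in young mice, where 24.6% of all genes were, and 2 of 6 in old mice, where 22.2% were. With age, limma called 0 of 6 in HSC, where 11.5% of all genes were called, and 0 of 6 in GMP, where 0% were. At an unadjusted p under 0.05 these counts were 1 of 6 in HSC, against 31.4% of all genes, and 0 of 6 in GMP, against 4.51%. For the difference between the age effects of HSC and GMP limma called 0 of 6 and 0.0933% of all genes, and 1 of 6 and 11.2% at an unadjusted p under 0.05. The median log2 difference of the 6 members was -0.14 for old minus young HSC, -0.07 for old minus young GMP, 0.02 for HSC minus GMP in young mice and 0.23 in old mice, against medians over all genes of 0.03, -0.01, -0.05 and 0.02.

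**Figure D1:**
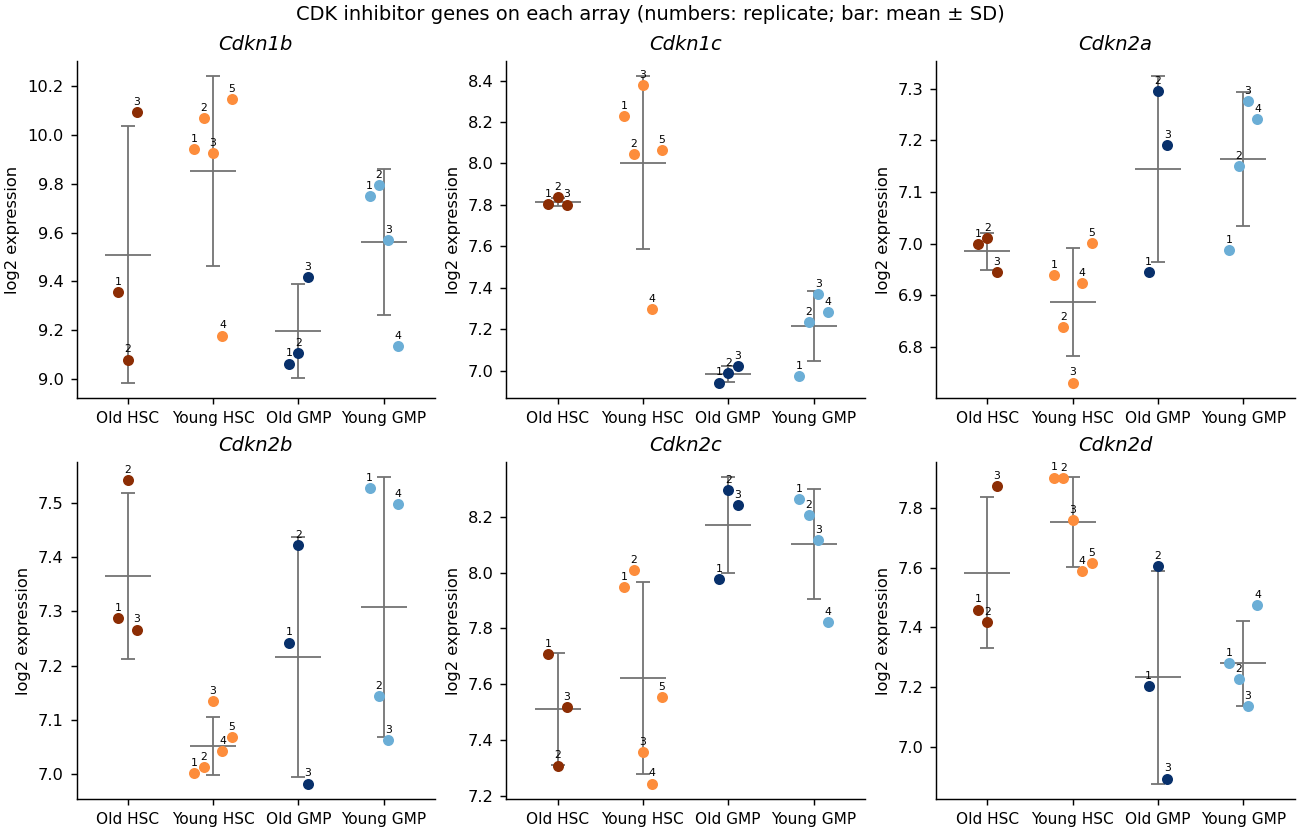
Expression of the 6 measured CDK inhibitor genes on each array, in log2 units on each probe set's own scale; points are arrays with their replicate number, and bars give the mean and SD of each group. Cdkn1c is higher in HSC than in GMP apart from young HSC replicate 4. Cdkn2c is higher in GMP apart from young HSC replicates 1 and 2, which lie above young GMP replicate 4. The 3 old HSC arrays lie above the 5 young HSC arrays for Cdkn2b.

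Cdkn1c, the gene of the Cip/Kip inhibitor p57, showed the largest cell-type difference of the members and was higher in HSC than in GMP at both ages. Cdkn1c stood at 7.80, 7.84 and 7.80 log2 on the old HSC arrays and at 6.94, 6.99 and 7.02 on the old GMP arrays. In young mice it stood at 8.23, 8.05, 8.38, 7.30 and 8.06 on the HSC arrays (replicates 1 to 5), against 6.98, 7.23, 7.37 and 7.28 on the GMP arrays. The old groups did not overlap, as for 34.7% of all genes, and of the young arrays only HSC replicate 4 lay among the GMP values, while the other 4 lay above all GMP arrays. Cdkn1c was 1.78-fold higher in old HSC than in old GMP (log2 0.83 ± 0.19, SE; limma adjusted p = 0.0034) and 1.73-fold higher in young HSC than in young GMP (0.79 ± 0.16; adjusted p = 0.000812). Both calls held in the 18 alternatives run for old and the 21 run for young mice, with log2 differences of 0.81 to 0.95 in old and 0.68 to 1.25 in young mice. Same-numbered young arrays deviated together, though young HSC replicate 2 and young GMP replicate 1 did so too (r = 0.25). The HSC minus GMP difference within replicates 1, 2 and 3 was 1.25, 0.81 and 1.01 log2, but 0.01 within replicate 4.

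With age, Cdkn1c was not called in either cell type. Cdkn1c averaged 7.81 ± 0.02 in old HSC (log2, SD, n = 3), and in young HSC 8.003 ± 0.42 (n = 5), with a log2 difference of -0.19 ± 0.17 (SE; 95% interval -0.55 to 0.17; limma adjusted p = 0.457). Young HSC replicate 4 decided this value. Without it the difference was -0.37 ± 0.12 and was called (adjusted p = 0.0261), and the 4 remaining young arrays lay above all 3 old arrays. Without replicate 4 of both young groups it was also called (adjusted p = 0.0218), in a fit that called 32% of all genes and 2 of the 6 members. With the mean of the Y-linked genes as a covariate the difference was -0.33 (adjusted p = 0.105), and with each array's interquartile range as a covariate it was 0.04 (adjusted p = 0.970). With replicate 1 as the single array of each young group it was -0.41 (adjusted p = 0.155), and over all alternatives the adjusted p ran from 0.0179 to 0.970. In GMP the means were 6.98 ± 0.04 in old and 7.22 ± 0.17 in young mice, a difference of -0.23 ± 0.18 (95% interval -0.61 to 0.15). The old minus young difference was higher in HSC than in GMP by 0.04 ± 0.25 (95% interval -0.48 to 0.57). In order of level, young and old HSC differed by less than their SD, both stood above young GMP by more than it, and young GMP stood above old GMP by 0.23 log2, more than the larger SD of 0.17, though their values overlapped.

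Cdkn1b, the gene of the Cip/Kip inhibitor p27, had 2 single-symbol probe sets, of which the brighter was used. Cdkn1b stood at 9.36, 9.08 and 10.09 log2 on the old HSC arrays and at 9.94, 10.07, 9.92, 9.18 and 10.15 on the young HSC arrays. On the old GMP arrays it stood at 9.06, 9.11 and 9.42, and on the young GMP arrays at 9.75, 9.79, 9.57 and 9.14. Old and young arrays overlapped in both cell types, and replicate 4 was the lowest array in each young group. Of the old HSC arrays, replicate 2 had the lowest Cdkn1b and the narrowest interquartile range (1.96 log2), and replicate 3 the highest Cdkn1b and the widest (2.33). Cdkn1b was not called in any comparison: the log2 difference was -0.34 ± 0.22 for old minus young HSC (95% interval -0.81 to 0.13; limma adjusted p = 0.295), -0.36 ± 0.23 for old minus young GMP (-0.85 to 0.12), 0.29 ± 0.20 for young HSC minus young GMP (-0.14 to 0.72) and 0.31 ± 0.25 for old HSC minus old GMP (-0.21 to 0.84). All 3 neighbouring pairs of groups, in the order young HSC, young GMP, old HSC and old GMP, differed by less than their SD.

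The value of Cdkn1b for age in HSC moved with the arrays and the scaling. It was -0.51 ± 0.17 and called without replicate 4 of both young groups (adjusted p = 0.0323), and -0.56 and called with the Y-linked mean as a covariate (adjusted p = 0.0285). That mean was lowest on both replicate 4 arrays (4.94 and 5.20 log2), so these settings are not independent of each other. The Cdkn1b difference was -0.58 and called with array weights (adjusted p = 0.00137). It was -0.63 when old HSC replicate 3 was left out and -0.13 when replicate 2 was, -0.07 after quantile normalization and 0.31 with the interquartile range as a covariate, none of them called; over all alternatives the adjusted p ran from 0.00137 to 0.838. In old mice Cdkn1b was called higher in HSC than in GMP after quantile normalization (0.55, adjusted p = 0.0411) and with the interquartile range as a covariate (0.66, adjusted p = 0.00386), while its adjusted p reached 0.967 under the others. The dimmer probe set gave differences nearer to 0. Its mean was 9.06 ± 0.15 for old HSC and 9.08 ± 0.18 for young HSC (log2, SD), with an old minus young difference of -0.02 ± 0.14 (SE), and its differences in the other comparisons lay between -0.01 and 0.06.

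**Figure D2:**
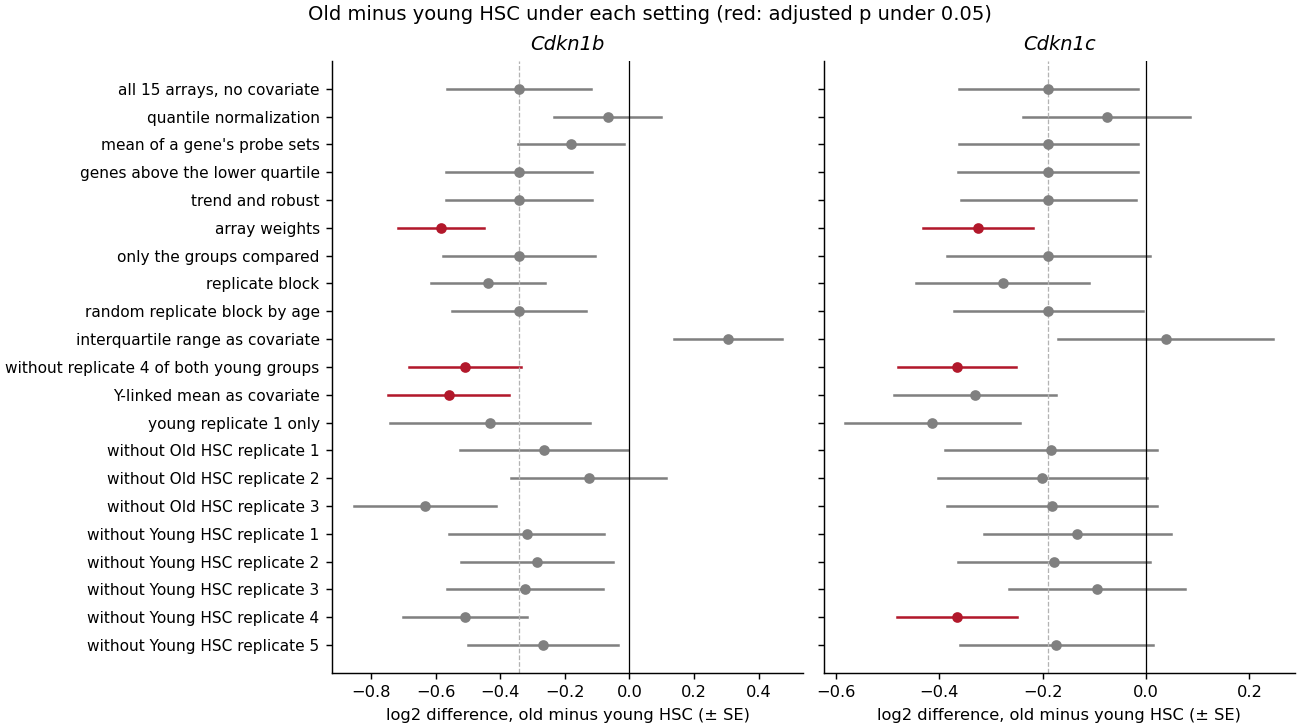
Log2 difference between old and young HSC for Cdkn1b and Cdkn1c under each setting of the fit, with bars of 1 SE; red marks an adjusted p under 0.05 and the dashed line the value with all 15 arrays and no covariate. Cdkn1c passes without young HSC replicate 4, without replicate 4 of both young groups and with array weights, and both genes lie above 0 only with the interquartile range as a covariate.

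Among the INK4 genes, Cdkn2c and Cdkn2d differed between the cell types in opposite directions. Cdkn2c, the gene of p18, was lower in HSC, and Cdkn2d, the gene of p19Ink4d, was higher in young HSC. The window of 250 bases before a start of each gene, from RefSeq (GRCm38.p6), is shown to set these genes beside each other. For Cdkn2c it is the window of the upstream of its starts. For Cdkn2d the start used, at 21291209, lies inside the span given for the gene, which reaches 21291421. Part of the Cdkn2d window thus lies within that span. Capitals mark GGGCGG on either strand, the core of the GC box bound by Sp1. This motif is in 32.7% of all 32851 windows of this length in the table. The windows lie at chr4:109666757-109667006 on the minus strand for Cdkn2c and at chr9:21291210-21291459 on the minus strand for Cdkn2d.
Cdkn2c: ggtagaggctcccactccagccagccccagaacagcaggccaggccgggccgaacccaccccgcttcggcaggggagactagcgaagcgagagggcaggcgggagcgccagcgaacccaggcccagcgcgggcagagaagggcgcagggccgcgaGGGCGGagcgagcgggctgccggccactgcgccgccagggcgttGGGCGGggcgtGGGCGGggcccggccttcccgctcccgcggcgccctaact
Cdkn2d: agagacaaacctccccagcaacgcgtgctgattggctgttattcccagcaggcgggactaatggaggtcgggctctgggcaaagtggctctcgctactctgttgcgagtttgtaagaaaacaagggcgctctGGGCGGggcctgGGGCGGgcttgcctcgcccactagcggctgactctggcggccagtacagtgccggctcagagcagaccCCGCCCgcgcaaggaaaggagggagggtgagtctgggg
Each window held 3 matches to GGGCGG and 0 matches to TTTNGCGC, a form of the E2F site found in 1.13% of windows, or to GTAAACA, a FoxO site found in 3.17%; matches of different motifs did not overlap. The window of the downstream start of Cdkn2c, at chr4:109665373-109665622, held 0 matches to any of these motifs and has a GC content of 42.8%, against 77.2% for the upstream window. Of the 7 genes, 6 had an entry in the promoter table, with 9 starts in all, and Cdkn1c had no entry.

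Cdkn2c stood at 7.71, 7.31 and 7.52 log2 on the old HSC arrays, against 7.98, 8.29 and 8.24 on the old GMP arrays. In young mice it stood at 7.95, 8.01, 7.36, 7.24 and 7.56 on the HSC arrays, against 8.26, 8.21, 8.12 and 7.82 on the GMP arrays. The old groups did not overlap, whereas young HSC replicates 1 and 2 lay above young GMP replicate 4. Cdkn2c was 1.58-fold lower in old HSC than in old GMP (log2 -0.66 ± 0.19, SE; limma adjusted p = 0.0144) and 1.39-fold lower in young HSC than in young GMP (-0.48 ± 0.15; adjusted p = 0.0273). It was lower in HSC within all 4 same-numbered young pairs, by 0.20 to 0.76 log2. Single arrays decided both calls. In old mice the adjusted p was 0.0752 when old HSC replicate 2 was left out, 0.0606 for old GMP replicate 2 and 0.0552 for old GMP replicate 3. In young mice it ran from 0.0539 to 0.0854 without young HSC replicates 3, 4 or 5 or young GMP replicates 1, 2 or 3, and the direction was the same each time. With age, the difference in Cdkn2c was -0.11 ± 0.17 in HSC (95% interval -0.46 to 0.24) and 0.07 ± 0.18 in GMP (-0.30 to 0.44). Within each cell type old and young levels differed by less than their SD, and both GMP groups stood above both HSC groups.

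Cdkn2d stood at 7.46, 7.42 and 7.87 log2 on the old HSC arrays, against 7.20, 7.61 and 6.89 on the old GMP arrays, and these groups overlapped. In young mice it stood at 7.90, 7.90, 7.76, 7.59 and 7.62 on the HSC arrays, against 7.28, 7.23, 7.14 and 7.47 on the GMP arrays. All 5 young HSC arrays lay above all 4 young GMP arrays; of all genes, 21.3% showed no overlap between these groups. Cdkn2d was 1.39-fold higher in young HSC than in young GMP (log2 0.47 ± 0.14, SE; limma adjusted p = 0.0154), a call that was lost without young GMP replicate 3 (adjusted p = 0.0593). Without replicate 4 of both young groups the difference was 0.58 ± 0.15 (adjusted p = 0.00627), in a fit that called 26.4% of all genes. In old mice the difference was 0.35 ± 0.17 and was not called (95% interval -0.003 to 0.70; adjusted p = 0.166), but it was 0.54 and called without old GMP replicate 2 (adjusted p = 0.0313). The difference between the cell types in old mice minus that in young mice was not called, at -0.12 ± 0.22 (adjusted p = 0.814). With age, Cdkn2d differed by -0.17 ± 0.15 in HSC (95% interval -0.48 to 0.15) and by -0.05 ± 0.16 in GMP (-0.38 to 0.28). Young and old HSC differed by less than their SD, as did young and old GMP, while old HSC stood above young GMP by 0.30, more than the larger SD of 0.25.

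Cdkn2b, the gene of p15, lies next to Cdkn2a on chromosome 4 and is known as a target of TGF-beta signalling. Cdkn2b stood at 7.29, 7.54 and 7.27 log2 on the old HSC arrays and at 7.002, 7.01, 7.13, 7.04 and 7.07 on the young HSC arrays. All old HSC arrays lay above all young HSC arrays, and Cdkn2b was the 1 member of 6 whose old and young HSC did not overlap; of all genes, 12.8% did not. The difference was 0.31 ± 0.13 log2 (SE; 95% interval 0.04 to 0.58) with an unadjusted limma p of 0.0263 and an adjusted p of 0.112, so Cdkn2b was not called. The adjusted p ran from 0.0618 to 0.753 over the alternatives and the sign was the same in all 20 of them. In GMP, Cdkn2b stood at 7.24, 7.42 and 6.98 in old mice and at 7.53, 7.14, 7.06 and 7.50 in young mice, a difference of -0.09 ± 0.14 (95% interval -0.38 to 0.19). Its age effect in HSC exceeded the one in GMP by 0.41 ± 0.19, with an unadjusted limma p of 0.0441 and an adjusted p of 0.433. Between the cell types Cdkn2b differed by -0.26 ± 0.12 in young mice (adjusted p = 0.136) and by 0.15 ± 0.15 in old mice (adjusted p = 0.577). Old HSC had the highest mean and young HSC the lowest, with young and old GMP between them, and all neighbours in this order differed by less than their SD.

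Cdkn2a makes 2 proteins from separate starts, p19Arf from the upstream start and p16Ink4a from the downstream one. The accessions of its probe set include the RefSeq transcripts of both, so its value was not assigned to either alone. How much each adds to it was not tested. The 250 bases before each start (RefSeq, GRCm38.p6, minus strand) are shown because the value was not split between these RNAs. The upstream window is chr4:89294620-89294869, with GGGCGG in capitals, and the downstream window is chr4:89282193-89282442, with TTTNGCGC in capitals.
Cdkn2a upstream start: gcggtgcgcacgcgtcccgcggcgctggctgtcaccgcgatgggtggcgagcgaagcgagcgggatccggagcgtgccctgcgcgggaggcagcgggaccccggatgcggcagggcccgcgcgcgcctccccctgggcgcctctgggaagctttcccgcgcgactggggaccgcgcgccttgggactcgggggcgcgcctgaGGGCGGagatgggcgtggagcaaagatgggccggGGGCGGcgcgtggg
Cdkn2a downstream start: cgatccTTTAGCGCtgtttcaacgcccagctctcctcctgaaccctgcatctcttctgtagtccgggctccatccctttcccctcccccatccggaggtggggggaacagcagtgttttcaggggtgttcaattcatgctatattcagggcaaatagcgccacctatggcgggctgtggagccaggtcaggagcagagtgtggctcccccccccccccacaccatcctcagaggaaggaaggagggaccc
The upstream window held 2 matches to GGGCGG and has a GC content of 78.4%, and the downstream window held 0 matches to GGGCGG and 1 to TTTNGCGC, with a GC content of 60.0%.

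Cdkn2a was above the median of its array on 1 of the 15 arrays. It stood at 7.0, 7.01 and 6.94 log2 on the old HSC arrays and at 6.94, 6.84, 6.73, 6.92 and 7.002 on the young HSC arrays. On the old GMP arrays it stood at 6.95, 7.30 and 7.19, and on the young GMP arrays at 6.99, 7.15, 7.28 and 7.24. Old and young arrays overlapped in both cell types. The age difference was 0.10 ± 0.11 in HSC (95% interval -0.13 to 0.33) and -0.02 ± 0.12 in GMP (-0.26 to 0.22). Between the cell types it was -0.28 ± 0.10 for young HSC minus young GMP (limma adjusted p = 0.0533), lower in HSC within all 4 same-numbered pairs, and it was called with the replicate block (-0.31 ± 0.10, adjusted p = 0.0374). That block also joined old and young arrays of the same number, which correlated at -0.24 to 0.15 in HSC and -0.23 to -0.01 in GMP. It is thus not a test of the young pairs alone. The young difference in Cdkn2a was called in 10 of 21 alternatives in all, the adjusted p running from 0.0161 to 0.942, and it was lower in HSC in all 21. In old mice the difference was -0.16 ± 0.12 (adjusted p = 0.456). The order of levels was young GMP, old GMP, old HSC and young HSC, and all neighbours differed by less than their SD.

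**Figure D3:**
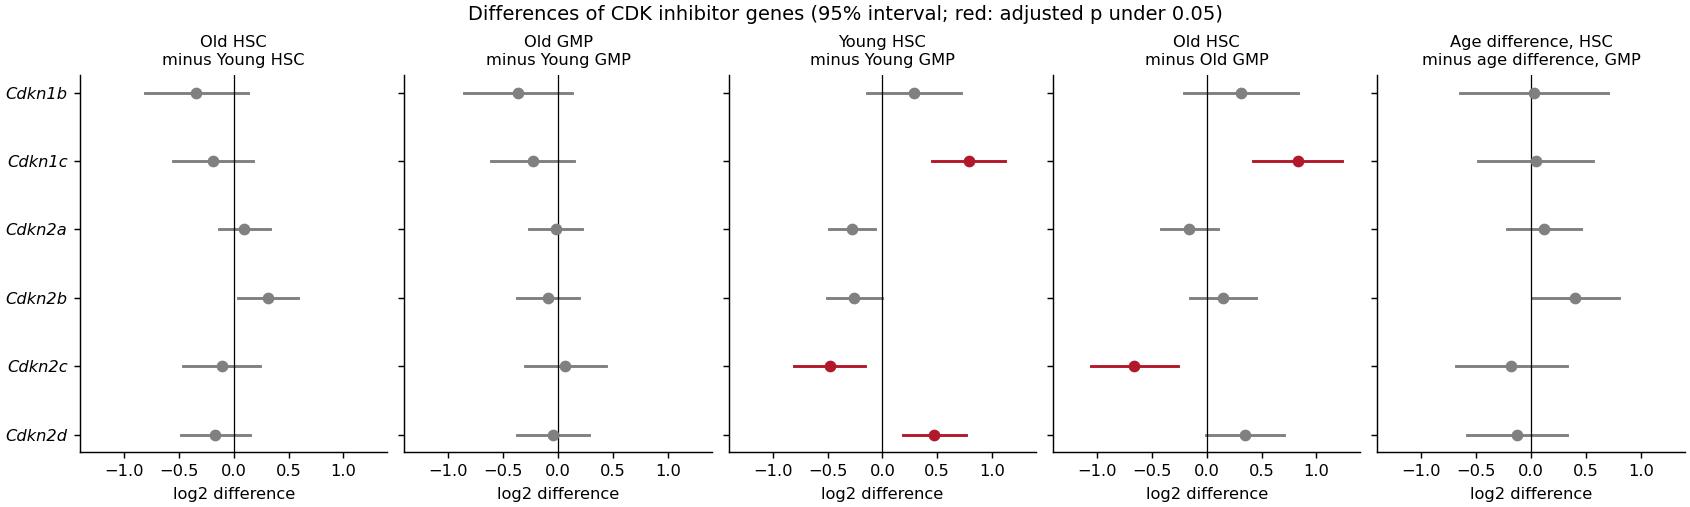
Log2 differences of the 6 genes in the 4 group comparisons and for the difference between the age effects of HSC and GMP; points are limma estimates, bars 95% intervals, and red marks an adjusted p under 0.05. Cdkn1c and Cdkn2c pass between the cell types at both ages and Cdkn2d in young mice, and none of the 6 genes passes with age.

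The genes whose values ran most alike with a member were taken by Pearson correlation over the 15 arrays, for the 4 members whose mean was above the median of all genes. These correlations describe 15 arrays in 4 groups that share cell type, age and array quality, and have no test. For Cdkn1c they were Foxa3 (r = 0.96), Rtl8c (0.95) and Hid1 (0.95), for Cdkn1b Ppt1, Cers2 and Rdh14 (0.93, 0.92 and 0.92), for Cdkn2c Slc35a3, Nadk and Slc33a1 (0.93, 0.91 and 0.91) and for Cdkn2d Car8, Phc1 and Nfatc1 (0.91, 0.90 and 0.90). Among the members themselves the highest correlation was between Cdkn1c and Cdkn2d, 0.72, and the lowest between Cdkn1c and Cdkn2a, -0.63.

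Most genes of the kinases and cyclins that CDK inhibitors bind, listed together with Cdc25a, a phosphatase that activates CDK2, were called between the cell types. Over all genes 13.6% were called higher and 10.9% lower in young HSC than in young GMP, 9.25% higher and 13% lower in old HSC than in old GMP, and 2.25% higher and 9.22% lower in old than in young HSC. Of these 10 genes, 3 were higher and 6 lower in young HSC than in young GMP (median -0.47 log2, against -0.05 over all genes). The D-type cyclin genes Ccnd1, Ccnd2 and Ccnd3 were the 3 that were higher, Ccnd1 by 1.91-fold. Cdk6, a kinase that INK4 proteins bind, was 2.40-fold lower, Ccna2, the S phase cyclin gene, 2.07-fold, and Ccne2, a G1/S cyclin gene, 1.92-fold; Cdc25a was also among the 6, at 1.62-fold. In old mice 2 were higher and 7 lower in HSC than in GMP (median -0.82), and Cdk6 was 1.90-fold and Cdc25a 2.23-fold lower. With age in HSC 1 rose and 5 fell (median -0.43, against 0.03), Cdc25a among them by 1.51-fold. Cdk4, the other INK4 target, fell 1.42-fold in old HSC (log2 -0.51 ± 0.13, limma adjusted p = 0.024) and Ccnd2 fell 1.41-fold, while Cdk6 was the gene that rose. Calls for age in HSC depended on single arrays: without old HSC replicate 2, 345 of all genes were called (1.79%), against 2213 with it. List counts in that fit are not given here. In GMP limma called 0 of all 104 listed genes with age, and 2 at an unadjusted p under 0.05. Genes that mark cycling cells were lower in HSC: 13 of 14 S and M phase genes were called lower than in GMP at each age, with medians of -0.96 in young and -1.48 in old mice, among them Rrm2, a subunit of ribonucleotide reductase, 3.58-fold and 4.91-fold. In old against young HSC 5 of these 14 fell and 0 rose (median -0.48), Mcm5, a subunit of the replicative helicase, by 1.81-fold. Without replicate 4 of both young groups 8 fell and 1 rose, in a fit where 19.6% of all genes fell.

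Of the pocket proteins and E2F factors, which act downstream of the inhibited kinases, 3 of 16 were higher and 6 lower in young HSC than in young GMP. Rbl2, the gene of the pocket protein p130, was 1.88-fold higher in young HSC, and E2f8 and Mybl2, genes of the proliferative programme, were 3.11-fold and 2.47-fold lower. In old HSC against old GMP 2 were higher and 7 lower. With age in HSC 2 fell, E2f3 by 1.61-fold and Rbl1, the gene of p107, by 1.39-fold, and 0 rose. Without replicate 4 of both young groups 5 of 16 fell and 0 rose, against 19.6% of all genes that fell.

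Turnover removes the p27 protein independently of Cdkn1b RNA. Genes of p27 turnover and related genes, not all of which act on p27 alone, fell in old HSC in 5 of 13 cases and rose in 0 (median -0.36, against 0.03 over all genes and -0.48 over the S and M phase genes). Cops5, a subunit of the COP9 signalosome, fell 1.87-fold (log2 -0.91 ± 0.21), Dtl, a substrate receptor of the CUL4 ligase, 1.72-fold, and Cks1b, the cofactor of Skp2, 1.68-fold, while the difference for Skp2 itself, the F-box gene, was -0.07 ± 0.11. Without replicate 4 of both young groups 9 of 13 fell, in a fit where 19.6% of all genes did. Between the cell types, Skp2 was 1.47-fold and Cks1b 1.74-fold lower in young HSC than in young GMP, where 2 of 13 were higher and 3 lower, against 0 and 3 without replicate 4 of both young groups.

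**Figure D4:**
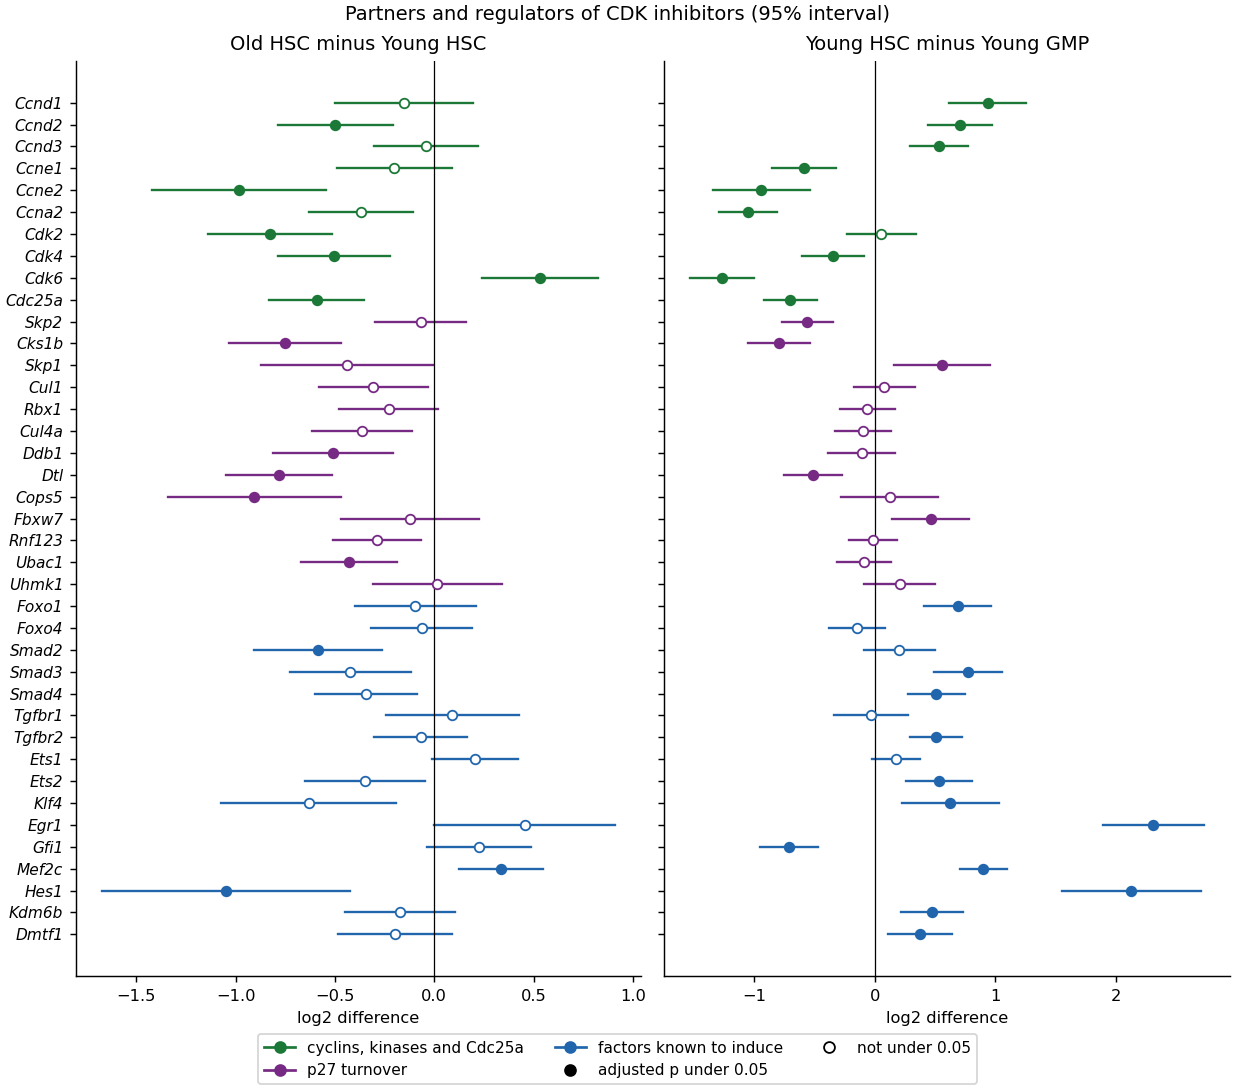
Log2 differences of the measured genes of 3 lists, the cyclins and kinases with Cdc25a, p27 turnover and factors linked to induction of CDK inhibitors, for old minus young HSC and for young HSC minus young GMP; bars are 95% intervals and filled points passed an adjusted p under 0.05. D-type cyclins lie above 0 and Cdk6 and Ccna2 below it in young HSC against young GMP, and most turnover genes lie below 0 in old HSC against young HSC.

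Many factors linked to induction of CDK inhibitors were higher in young HSC than in young GMP. Of 16 measured, 11 were higher and 1 lower in young HSC than in young GMP (median 0.51), and 6 were higher and 0 lower in old HSC than in old GMP (median 0.27, against 0.02). Egr1, an immediate early factor, was 4.97-fold higher in young HSC than in young GMP and 6.82-fold higher in old HSC than in old GMP, Hes1, a Notch target that can also repress Cdkn1b, 4.38-fold and 2.16-fold, and Foxo1 1.61-fold and 1.55-fold. Smad3, a mediator of TGF-beta signals, was 1.71-fold higher in young HSC. With age in HSC 1 rose, Mef2c by 1.26-fold, and 2 fell, Hes1 by 2.07-fold (log2 -1.05 ± 0.30, limma adjusted p = 0.0311) and Smad2 by 1.498-fold. Without replicate 4 of both young groups 1 rose and 6 of 16 fell, where 19.6% of all genes fell. Of 13 factors linked to repression, 4 were higher and 0 lower in young HSC than in young GMP, among them Mycn, 2.58-fold, and Id2, 2.07-fold. In old HSC against old GMP 1 was higher, Mycn by 1.91-fold, and 1 lower, Myc by 1.45-fold. In old against young HSC 3 fell, Akt1, Hdac1 and Id1, by 1.45-fold, 1.45-fold and 1.41-fold. Without replicate 4 of both young groups 6 of 13 fell, again against 19.6% of all genes.

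Polycomb complexes are known to keep the Cdkn2a locus silent. Of 15 measured Polycomb genes, 2 fell in old HSC and 0 rose, Ezh2 by 1.48-fold and Eed by 1.47-fold, both of the methyltransferase complex. Without replicate 4 of both young groups 6 of 15 fell, where 19.6% of all genes fell. Over the same arrays the Cdkn2a probe set differed by 0.10 ± 0.11 log2, as given above. Between the cell types 5 Polycomb genes were higher and 2 lower in young HSC than in young GMP: Pcgf2 and Ezh1 were 1.88-fold and 1.84-fold higher, and Ezh2 was 1.51-fold lower. Phc1, which was also among the genes most like Cdkn2d over the arrays, was 1.70-fold higher.

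Cdkn1c lies in an imprinted domain on chromosome 7, in which mouse Phlda2, like Cdkn1c, is expressed from the maternal copy. Of 7 measured genes in and beside this domain 2 were higher in HSC than in GMP at each age and 0 were lower. Of all genes, 13.6% were higher in young and 9.25% in old HSC, so a count of 2 among 7 genes says little about the domain. Phlda2 was 1.75-fold higher in young and 1.48-fold higher in old HSC (log2 0.81 ± 0.11 and 0.57 ± 0.14), and Cd81, a tetraspanin gene at its edge, 1.93-fold and 1.46-fold. With age in HSC 2 fell, Cd81 by 1.55-fold and Tssc4 by 1.48-fold, where 9.22% of all genes fell.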

How the data were processed

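Each array of total RNA, amplified from sorted cells, gave 1 column of log2 expression values in the table the authors deposited. Without versions, RMA, affy and limma are named in the submitters' processing notes; that the values are log2 was read from their range in the deposited table. Filters and genome build are not given in the sources used here. Of 23309 probe sets, 20728 had 1 gene symbol, 1174 several and 1407 none, and the brightest single-symbol probe set stood for a gene (19296 genes). Gene symbols were those of RefSeq where the Entrez gene identifier of a probe set was found there, and otherwise those of the platform annotation.

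limma 3.58.1 in R 4.3.3 fitted a mean per group to all 15 arrays, with Benjamini-Hochberg adjustment over all genes. The members, the 8 gene lists and the marker lists were chosen with earlier results of these data known. Named were all members, from each list some of the up to 4 called genes of largest difference, and the 3 genes most correlated with a member; a few other list genes were named after their values were seen. Same-numbered young HSC and GMP arrays deviated together (r 0.16 to 0.52 in 4 of 4 pairs), and in old mice this held in 2 of 3 pairs. This was taken as pairing but does not show it. Unmatched young HSC and GMP arrays ran from -0.41 to 0.25, and old HSC replicate 2 and young HSC replicate 4, of different ages, reached 0.39. Pairing and other traits shared by arrays cannot be told apart here. The fit was tested on simulated data. In figures and text, SE is that of limma, and SD that of the arrays.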

Additional observations from a re-analysis of the deposited data

Results flagged for a closer look

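In young HSC, Cdkn1b on replicate 4 lay at 9.18 log2, far from the other 4 arrays: its gap to the nearest array was 0.770 of the whole range of the group. It was the 1 such value among 12 tested sets, each being a member in young HSC or young GMP. Chance flags about 1 in 20 of such sets, so 1 flag among 12 can arise by chance. Cdkn1c was also lowest on this array in young HSC (7.30 log2) but was not flagged. The array is the one whose Xist level was highest and whose Y-linked genes were lowest in its group, and its part in the value of Cdkn1b was not tested. Without replicate 4 of both young groups Cdkn1b was called for age in HSC, as given above.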

How the results depend on the processing

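Of the 6 members, the number called for old against young HSC was 0, and it was 3 with array weights (Cdkn1b, Cdkn1c and Cdkn2d, all lower), where 46.5% of all genes were called, 2 without replicate 4 of both young groups (32%) and 1 with the Y-linked mean as a covariate (34.1%); leaving out single arrays gave 0 to 1. For old against young GMP it was 0, and 1 with array weights (Cdkn1b, lower), where 4.31% of all genes were called; single arrays gave 0 to 0. For HSC against GMP it was 3 in young mice and 1 with only replicate 1 of each young group (9.17% of all genes), whose spread was then assumed to be that of the old groups, with 1 to 3 over single arrays; it was 2 in old mice, with 1 to 2. With the replicate block, which joined same-numbered arrays of both ages, the number called was 0 for both age comparisons and 2 for old HSC against old GMP. For young HSC against young GMP it was 4, where Cdkn2a was added. This block changed no other call of a member. No call of the reported fit reversed its sign. For age in HSC that fit called no member, and direction was not stable for all. Cdkn1b and Cdkn1c, called lower under some settings, were at 0.31 and 0.04 log2 with the interquartile range as a covariate, not called. The causes were not tested.

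The number of all genes called depended more on the settings: 22 to 8966 for age in HSC (2213 as reported), 0 to 832 for age in GMP (0), 1770 to 6767 for HSC against GMP in young mice (4741), 3272 to 7494 in old mice (4292) and 0 to 2407 for the difference of both age effects (18).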
